A study of Macaca mulatta with 16 samples.

Results

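The prostaglandin and leukotriene pathway was followed through 10 genes in the lungs of fetal rhesus macaques: PTGS1, PTGS2, PTGES, PTGDS, PTGER2, PTGER4, HPGD, ALOX5, ALOX5AP and ALOX15. They were chosen by gene symbol with earlier results of these data known, and are 10 of 22515 genes in the table of counts. All 10 matched 1 rhesus Ensembl gene each, and all 10 were among the 19199 genes with enough counts to be tested. The data are bulk RNA sequencing of poly(A)-selected lung RNA from 16 animals, 1 library per animal. The preterm controls are 4 animals without any intervention, numbered 092, 101, 113 and 209 and delivered at 131 to 135 days of gestation. The term controls are 2 animals without any intervention, 200 and 201, delivered at 156 and 157 days. The LPS 16h group is 4 animals, 026, 029, 035 and 038, whose amniotic fluid was injected with 1 mg of bacterial lipopolysaccharide (LPS) at 129 to 130 days and which were delivered 16 hours later. The LPS 5d group is 3 animals, 239, 240 and 242, given the same injection at 126 to 129 days and delivered after 5 days. The LPS + Beta-Ac 5d group is 3 animals, 248, 249 and 255, given the same injection at 126 to 127 days with 0.125 mg/kg of betamethasone-acetate (Beta-Ac), a corticosteroid injected into the muscle of the dam, and delivered after 5 days. The controls were not injected with a vehicle, there was no group with Beta-Ac alone among the libraries used here, and a single injection of LPS stands for an infection that in people is ongoing.

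Prostaglandins and leukotrienes are lipid signals made from arachidonic acid, which phospholipases release from membranes. Cyclooxygenases turn it into prostaglandin H, from which PTGES makes prostaglandin E, the prostaglandin best known for fever, pain and the onset of labour. The lung is also a main site where prostaglandins are broken down, a task of HPGD. Leukotrienes come from the other branch, in which ALOX5, helped by ALOX5AP, acts in neutrophils, macrophages and mast cells, and their main product in neutrophils attracts further neutrophils.

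Library totals were 30596371 to 48052891 counts in LPS 16h and 20169363 to 28348816 in the other groups. The TMM scaling factors, which correct for differences in composition between libraries, were 0.857 to 0.920 in LPS 16h and 0.995 to 1.12 elsewhere. Markers of alveolar type 2 cells, the surfactant-producing cells of the lung, summed to 6346 CPM or more in every library. CPM are TMM-scaled counts relative to the library total, so that libraries of different depth can be compared. Preterm control 209 and term control 200 stood apart from the other 10 animals without LPS 16h on the second principal component, at -53.5 and -54.1 against -30.7 to 36.5, and the results that rest on them are also given without them. In what follows a gene is called higher or lower when its adjusted p was below 0.05 and its fold change at least 2.

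At 16 hours after LPS, 8 of the 10 genes were called against preterm controls, 5 higher and 3 lower. Of all tested genes 14.4% were called in that comparison, 8.3% higher and 6.07% lower. PTGS2, PTGES, PTGER4, ALOX5 and ALOX5AP rose, whereas PTGS1, PTGDS and HPGD fell. PTGER2 and ALOX15 reached an adjusted p below 0.05 with a fold change under 2. The median over the 10 genes was 1.56 on the log2 scale, and that over all tested genes -0.09. In 8 of the 10 genes the animals of the 2 groups did not overlap, 6 higher and 2 lower, and 17% of all genes did so on the higher side and 16.6% on the lower. By 5 days 3 of the 10 were called against preterm controls with or without Beta-Ac, namely HPGD lower and ALOX5 and ALOX5AP higher. The plot of CPM by animal shows these patterns.

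**Figure D1:**
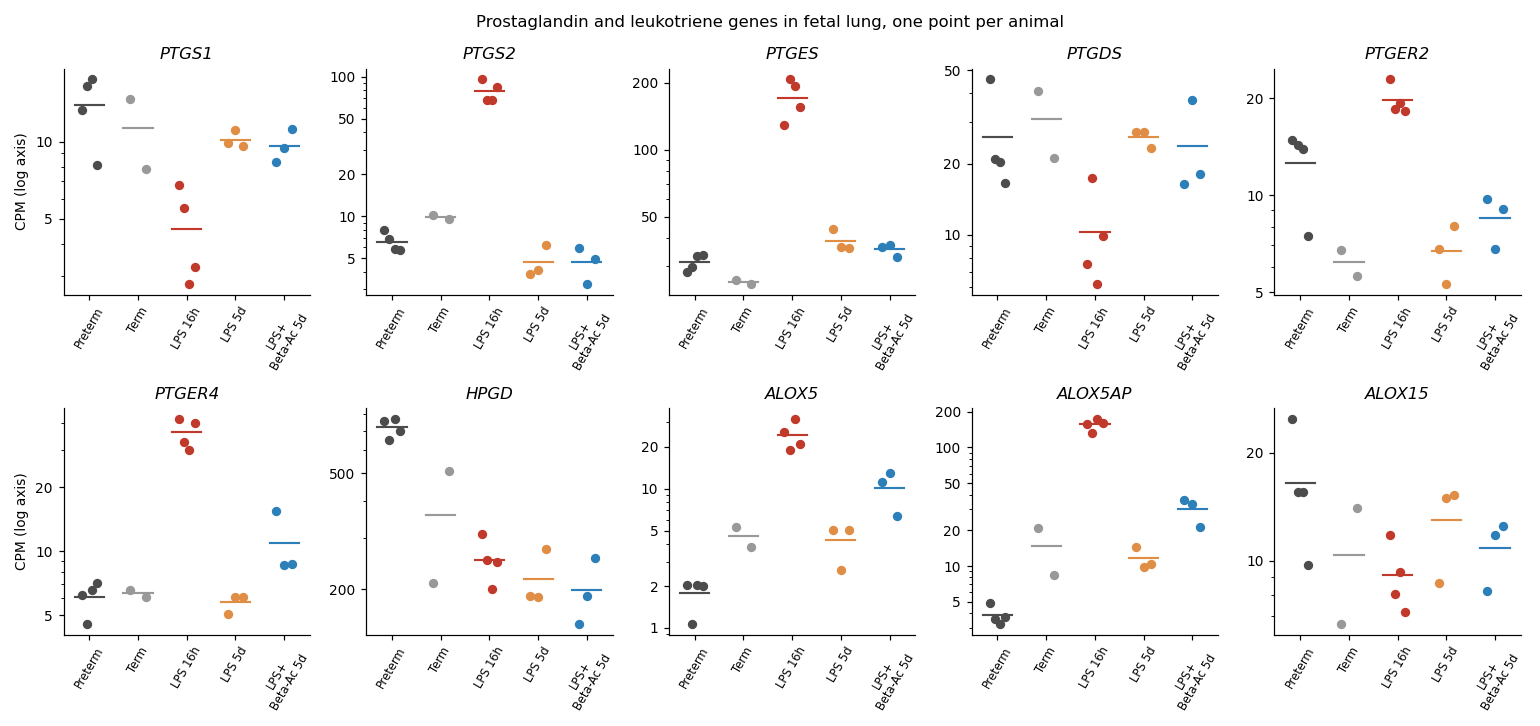
CPM (log axis) of the 10 genes in each animal, by group, with the group mean as a line. In PTGS2, PTGES and PTGER4 the 4 LPS 16h animals lie above all others, in HPGD the 4 preterm controls lie above all others, and in ALOX5 and ALOX5AP the 4 preterm controls lie below all others.

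Cyclooxygenases carry out the first step towards prostaglandins. PTGS2 (ENSMMUG00000016857), the inducible cyclooxygenase, was at 96.8, 68.5, 68.2 and 85.2 CPM in LPS 16h and at 7.93, 6.84, 5.82 and 5.78 CPM in preterm controls. It was at 10.3 and 9.50 CPM in term controls, at 3.85, 4.14 and 6.22 CPM in LPS 5d, and at 5.91, 3.26 and 4.97 CPM in LPS + Beta-Ac 5d. All 4 LPS 16h animals were far above the other 12. PTGS2 was 11.9-fold higher in LPS 16h than in preterm controls (log2 fold change 3.58, SE 0.204, adjusted p = 4.5e-09) and 16.8-fold higher than in LPS 5d (log2 4.07, SE 0.220, adjusted p = 9.1e-09). At 5 days its log2 difference from preterm controls was -0.49 with LPS (adjusted p = 0.156) and -0.51 with LPS + Beta-Ac (adjusted p = 0.133).

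PTGS1 (ENSMMUG00000012886), the cyclooxygenase that most tissues express without stimulation, took the opposite course. Its CPM were 6.75, 5.50, 2.77 and 3.23 in LPS 16h and 13.3, 16.5, 17.6 and 8.07 in preterm controls. The lowest preterm control, 209, was still above every LPS 16h animal. It was 3.08-fold lower in LPS 16h than in preterm controls (log2 -1.62, SE 0.298, adjusted p = 0.00055). At 5 days it was at 9.87, 11.1 and 9.58 CPM with LPS and at 8.32, 9.41 and 11.2 CPM with LPS + Beta-Ac, within the range of the preterm controls, and it was called lower in LPS 16h than in LPS 5d (log2 -1.24, SE 0.322, adjusted p = 0.0075). The term controls were at 14.7 and 7.85 CPM, the second just below the preterm range.

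The terminal synthases divided in the same way. PTGES (ENSMMUG00000059501), the inducible prostaglandin E synthase that works with PTGS2, was at 129, 208, 193 and 155 CPM in LPS 16h and at 28.2, 29.7, 33.3 and 33.5 CPM in preterm controls. It was 5.41-fold higher in LPS 16h (log2 2.44, SE 0.136, adjusted p = 3.9e-09). At 5 days it was at 44.0, 36.4 and 36.0 CPM with LPS, above all preterm controls, with a log2 difference of 0.31 that did not pass the test (adjusted p = 0.177). With LPS + Beta-Ac it was at 36.6, 37.4 and 33.0 CPM, and in term controls at 26.0 and 24.8 CPM. LPS 16h was called higher than LPS 5d (log2 2.12, SE 0.147, adjusted p = 8.1e-08).

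PTGDS (ENSMMUG00000052688), a prostaglandin D synthase, was at 7.57, 17.5, 6.18 and 9.89 CPM in LPS 16h and at 45.9, 20.9, 20.4 and 16.6 CPM in preterm controls. LPS 16h animal 029 overlapped with preterm control 209, and preterm control 092 was the highest of all 16 animals. The fold change was called lower (log2 -1.33, SE 0.373, adjusted p = 0.0117). In the remaining groups the level was 40.8 and 21.1 CPM at term, 27.4, 27.2 and 23.4 CPM in LPS 5d, and 16.4, 37.2 and 18.1 CPM in LPS + Beta-Ac 5d. It was called lower in LPS 16h than in LPS 5d (log2 -1.45, SE 0.403, adjusted p = 0.0119), where the groups did not overlap.

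The receptors PTGER2 and PTGER4 both bind prostaglandin E and raise cyclic AMP. PTGER4 (ENSMMUG00000016167) was at 42.0, 32.8, 29.9 and 40.0 CPM in LPS 16h and at 6.19, 4.53, 6.56 and 7.09 CPM in preterm controls. It was 5.90-fold higher in LPS 16h (log2 2.56, SE 0.199, adjusted p = 1.1e-07) and 6.20-fold higher than in LPS 5d (adjusted p = 3.3e-07). Term controls, at 6.58 and 6.08 CPM, and LPS 5d, at 5.08, 6.06 and 6.07 CPM, lay within the preterm range. LPS + Beta-Ac 5d did not, at 15.4, 8.58 and 8.71 CPM, and all 3 animals were above every control and every LPS 5d animal. That difference from preterm controls was 1.74-fold (log2 0.80, SE 0.215, adjusted p = 0.0183), below the fold change required for a call. Against LPS 5d it was 1.82-fold (adjusted p = 0.268).

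PTGER2 (ENSMMUG00000000023) was at 23.0, 18.6, 19.3 and 18.3 CPM in LPS 16h, 14.9, 14.3, 13.9 and 7.46 CPM in preterm controls, 6.76 and 5.62 CPM in term controls, 6.82, 5.30 and 8.02 CPM in LPS 5d, and 9.75, 6.81 and 9.05 CPM in LPS + Beta-Ac 5d. LPS 16h lay above preterm controls without overlap, by 1.61-fold (log2 0.69, SE 0.214, adjusted p = 0.0189). Preterm control 209 was at about the level of the term and 5-day animals. LPS 5d was 1.83-fold lower than preterm controls (log2 -0.87, adjusted p = 0.0193) and term controls 1.96-fold lower (log2 -0.97, adjusted p = 0.0504), neither of which was a call. Without preterm control 209 both were calls, at a log2 fold change of -1.11 (adjusted p = 0.0011) for LPS 5d and -1.21 (adjusted p = 0.0047) for term, and without LPS 5d animal 242 the LPS 5d value was a call too (log2 -1.01, adjusted p = 0.0235). Between LPS 16h and LPS 5d the difference was 2.96-fold and was called (log2 1.56, SE 0.231, adjusted p = 9.6e-05).

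HPGD (ENSMMUG00000020408), the dehydrogenase that takes the first step in inactivating prostaglandin E, fell in every other group, including term. It was at 752, 651, 768 and 699 CPM in preterm controls, and the highest of the other 12 animals, term control 201, was at 508 CPM. LPS 16h was at 309, 252, 201 and 247 CPM, LPS 5d at 189, 188 and 275 CPM, and LPS + Beta-Ac 5d at 151, 190 and 256 CPM. The 3 LPS groups overlapped one another. HPGD was 2.87-fold lower than in preterm controls in LPS 16h (log2 -1.52, SE 0.236, adjusted p = 0.00014), 3.35-fold lower in LPS 5d (log2 -1.74, SE 0.255, adjusted p = 0.00063) and 3.68-fold lower in LPS + Beta-Ac 5d (log2 -1.88, SE 0.255, adjusted p = 0.00021). These 3 comparisons share the preterm controls. LPS 16h and LPS 5d differed by 0.22 on the log2 scale, with a 95% interval of -0.32 to 0.77 (adjusted p = 0.539). Markers of some cell types differed too. The 7 smooth muscle and pericyte markers summed to 2679 to 3302 CPM in preterm controls and less in every other group, without overlap. They were at 2194 to 2536 in LPS 16h, 1731 to 1828 in LPS 5d, 1585 to 2057 in LPS + Beta-Ac 5d and 1495 to 2031 at term. Of the 7, 1, 0, 1 and 1 were called lower in that order, and 1 was called higher in LPS 16h. Of all tested genes 6.07%, 2.23%, 2.44% and 0.953% were called lower. The 7 fibroblast markers summed to 13883 to 22605 CPM in preterm controls and to 9626 to 13453, 8369 to 14582, 8157 to 11234 and 8555 to 8594 in the same order, overlapping in LPS 5d alone. The 6 endothelial markers were at 2086 to 2576 CPM against 1713 to 2078, 1415 to 2210, 1730 to 2115 and 1200 to 1806, overlapping in both 5-day groups. Of the fibroblast markers 1, 0, 2 and 3 were called lower in the same order, and of the endothelial markers 1, 0, 0 and 1. The 6 alveolar type 1 markers were at 1762 to 2299 CPM in preterm controls. In LPS 16h they were lower without overlap, at 880 to 1049, and 4 of the 6 were called lower. They did not follow HPGD in LPS 5d, in LPS + Beta-Ac 5d or at term, at 1973 to 3152, 1499 to 2663 and 2765 to 3636. There 0 were called lower, and 1 was called higher at term. The part of these cells in the level of HPGD was not tested.

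At term the fall of HPGD depended on single animals and on the scaling. Term control 200 was at 211 CPM, among the LPS animals, and term control 201 at 508 CPM, between them and the preterm controls. The 2.19-fold lower mean was called (log2 -1.13, SE 0.289, adjusted p = 0.0428). Without term control 200 the log2 difference was -0.50 (adjusted p = 0.427), and the call was also lost without preterm control 092, 101 or 113, with log2 differences of -1.11, -1.18 and -1.10 and adjusted p from 0.069 to 0.0987. It was lost as well with median-of-ratios scaling (adjusted p = 0.0518), with library totals alone (adjusted p = 0.0810) and when only the groups compared were fitted (adjusted p = 0.170).

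The level of PTGS2 relative to HPGD sets the gene for making prostaglandins beside the gene for clearing them within each animal. The log2 ratio of their CPM was -1.66 ± 0.156 (SD, n = 4) in LPS 16h and -6.76 ± 0.241 (n = 4) in preterm controls. At 5 days it was -5.51 ± 0.0748 (n = 3) with LPS and -5.39 ± 0.633 (n = 3) with LPS + Beta-Ac, above all preterm controls. PTGS2 itself was not called there, and its log2 differences from preterm controls were below 0, at -0.49 and -0.51. Those of HPGD were -1.74 and -1.88, so the higher ratio at 5 days reflects the lower HPGD and not a higher PTGS2. Term controls were at -4.35 and -5.73, animal 200 being the higher. Only differences of this ratio between groups can be read. Its size is not a ratio of molecules, because the counts are not corrected for transcript length.

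**Figure D2:**
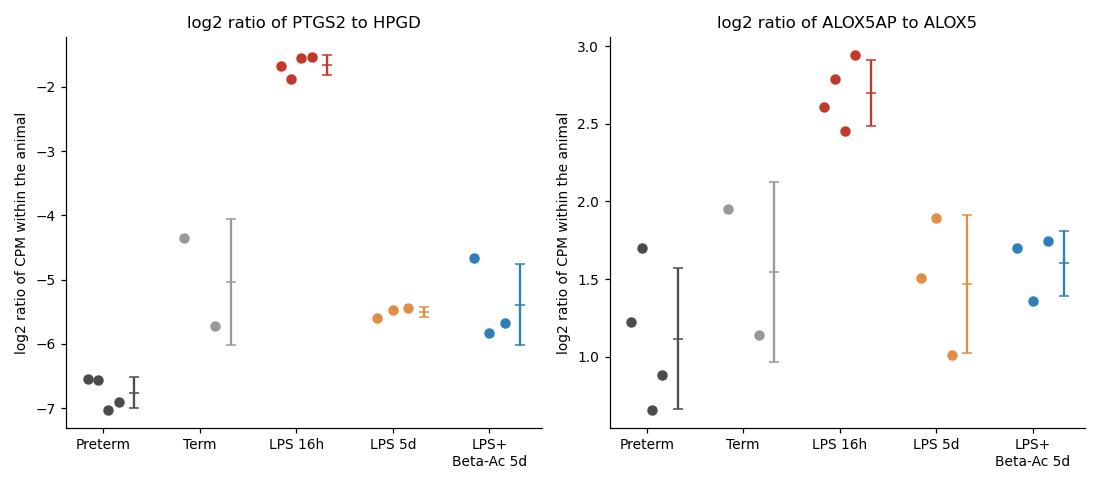
Log2 ratio of CPM within each animal for PTGS2 to HPGD (left) and ALOX5AP to ALOX5 (right), 1 point per animal, with the mean and SD of the group beside the points. The PTGS2 to HPGD ratio lies between -1.88 and -1.54 in LPS 16h and between -7.03 and -6.55 in preterm controls, with the remaining groups in between.

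ALOX5 (ENSMMUG00000013434) and ALOX5AP (ENSMMUG00000005572) encode the lipoxygenase that starts leukotriene synthesis and the membrane protein that presents arachidonic acid to it. ALOX5AP was at 157, 132, 175 and 161 CPM in LPS 16h and at 4.88, 3.61, 3.23 and 3.75 CPM in preterm controls. It was at 20.8 and 8.47 CPM in term controls, at 14.5, 9.90 and 10.3 CPM in LPS 5d, and at 36.3, 33.5 and 21.3 CPM in LPS + Beta-Ac 5d. Every animal of the other groups was above every preterm control. It was 40.0-fold higher in LPS 16h (log2 5.32, SE 0.247, adjusted p = 6.4e-10), the largest difference of the 10 genes in the 6 comparisons. It was 2.95-fold higher in LPS 5d (log2 1.56, SE 0.267, adjusted p = 0.0016), 7.62-fold higher in LPS + Beta-Ac 5d (log2 2.93, SE 0.267, adjusted p = 7.8e-06) and 3.44-fold higher at term (log2 1.78, SE 0.303, adjusted p = 0.0070). Without term control 200 the term value was 1.13 (adjusted p = 0.103), and when only the groups compared were fitted its adjusted p was 0.0651.

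ALOX5 likewise was highest in LPS 16h and lowest in preterm controls. It was at 25.7, 19.0, 31.8 and 20.9 CPM in LPS 16h and at 2.05, 1.06, 2.02 and 2.00 CPM in preterm controls, of which animal 101 was the low one. LPS + Beta-Ac 5d, at 11.1, 13.0 and 6.32 CPM, lay above LPS 5d, at 5.08, 2.61 and 5.08 CPM, and term controls, at 5.33 and 3.81 CPM, overlapped with LPS 5d. It was 13.3-fold higher in LPS 16h (log2 3.74, SE 0.292, adjusted p = 1.2e-07) and 5.45-fold higher in LPS + Beta-Ac 5d (log2 2.45, SE 0.315, adjusted p = 0.00013). The calls in LPS 5d (log2 1.21, SE 0.315, adjusted p = 0.0185) and at term (log2 1.35, SE 0.358, adjusted p = 0.0477) were weaker. The LPS 5d call was lost without preterm control 101 (log2 0.98, adjusted p = 0.0528), LPS 5d animal 239 (1.05, adjusted p = 0.0866) or 242 (1.05, adjusted p = 0.0783), and with limma-voom (1.20, adjusted p = 0.0659). The term call was lost without preterm control 092, 101 or 113 or either term control, with log2 differences from 1.11 to 1.59 and adjusted p from 0.0756 to 0.286, and also with limma-voom (adjusted p = 0.105), without a filter on low counts (0.0544) and when only the groups compared were fitted (0.107).

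ALOX5 was 5.79-fold and ALOX5AP 13.6-fold higher in LPS 16h than in LPS 5d (adjusted p = 2.0e-05 and 1.0e-07). The log2 ratio of ALOX5AP to ALOX5 was 2.70 ± 0.214 (SD, n = 4) in LPS 16h and 1.12 ± 0.453 (n = 4) in preterm controls. It was 1.47 ± 0.444 (n = 3) in LPS 5d and 1.60 ± 0.212 (n = 3) in LPS + Beta-Ac 5d, and 1.95 and 1.14 in term controls. The LPS 16h animals, at 2.45 or more, lay above all others.

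Both genes are expressed in myeloid cells, and markers of neutrophils and of monocytes and macrophages moved in the same comparisons. In a bulk sample, fewer or more cells of a type and less or more RNA per cell cannot be told apart. Against preterm controls, 8.3% of all tested genes were called higher in LPS 16h and 2.6% in LPS 5d. In LPS + Beta-Ac 5d the share was 4.05% and at term 1.11%. Of 11 neutrophil markers, 8 were called higher in LPS 16h, 3 in LPS 5d, 9 in LPS + Beta-Ac 5d and 4 at term. Their summed level was 1534 to 2270 CPM in LPS 16h, 39.2 to 78.9 in preterm controls, 140 to 204 at term, 113 to 152 in LPS 5d and 196 to 617 in LPS + Beta-Ac 5d. Of 13 monocyte and macrophage markers, 9, 5, 11 and 1 were called higher in the same order, and they summed to 1471 to 1704, 316 to 465, 435 to 534, 444 to 462 and 662 to 1012 CPM. MARCO, a scavenger receptor of alveolar macrophages, had no counts in any of the 4 preterm controls, and the neutrophil markers FPR1, S100A12 and CEACAM8 had no counts in at least 1 of them. The 7 mast cell markers in the table did not rise as a sum in LPS 16h, at 103 to 178 CPM against 173 to 195 in preterm controls. Their sums were 169 to 193 at term, 183 to 218 in LPS 5d and 168 to 238 in LPS + Beta-Ac 5d, overlapping the preterm range. Of these 7, 1 was called higher in LPS 16h, 1 in LPS 5d, 3 in LPS + Beta-Ac 5d and 1 at term, and none lower. Their median log2 fold change was -0.016, 1.15, 1.30 and 1.67 in that order. The 4 eosinophil markers summed to 5.47 to 11.3 CPM in LPS 16h and 4.90 to 10.5 in preterm controls, with 1 of 4 called higher. The part of these cells in the levels of ALOX5 and ALOX5AP was not tested.

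Set against those sums, the genes behaved differently. Per 1000 CPM of the neutrophil markers, ALOX5AP was at 88.7 ± 15.9 CPM (SD, n = 4) in LPS 16h and 72.2 ± 36.0 (n = 4) in preterm controls, and the 2 groups overlapped. Per 1000 CPM of the monocyte and macrophage markers it was at 95.7 ± 5.82 in LPS 16h and 10.3 ± 2.87 in preterm controls, without overlap. ALOX5 was at 13.6 ± 2.56 CPM per 1000 CPM of the neutrophil markers in LPS 16h and 32.1 ± 14.2 in preterm controls, lower without overlap. Per 1000 CPM of the monocyte and macrophage markers it was at 14.9 ± 2.80 and 4.59 ± 1.02, higher without overlap. Preterm libraries held 23 to 57 counts of ALOX5. These ratios were chosen after the values had been seen, are a description with no test, and depend on which markers carry the sums. S100A9 and S100A8, at means of 958 and 505 CPM, made up most of the neutrophil sum in LPS 16h. The 13 monocyte and macrophage markers had a median log2 fold change of 1.28 in LPS 5d against preterm controls. Their sum there, at 444 to 462 CPM, still lay within the preterm range of 316 to 465. That sum therefore follows only a part of its markers, and so do the ratios to it.

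**Figure D3:**
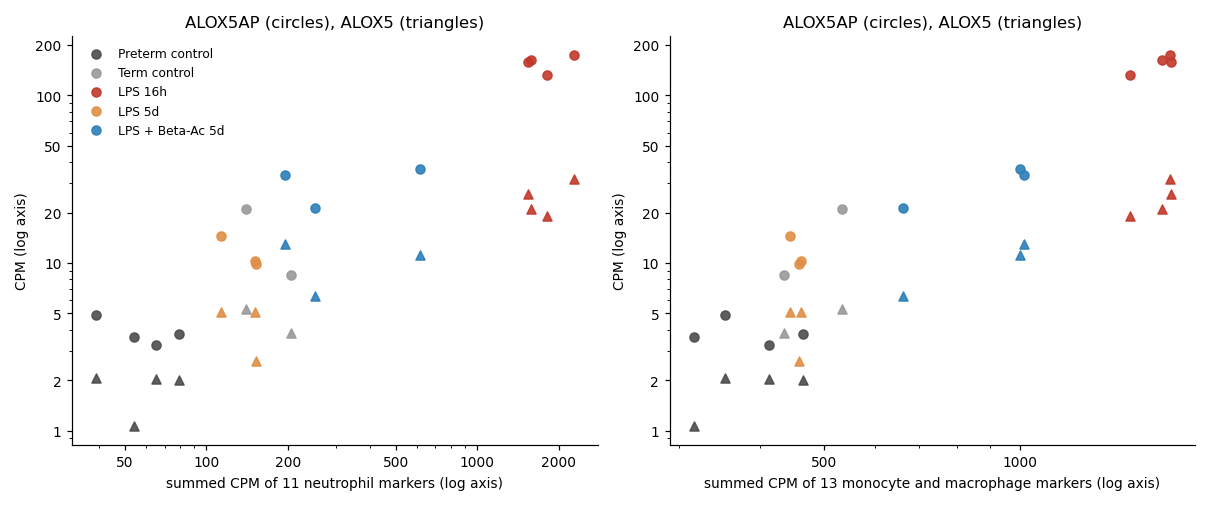
CPM of ALOX5AP (circles) and ALOX5 (triangles) in each animal against the summed CPM of 11 neutrophil markers (left) and 13 monocyte and macrophage markers (right), all axes logarithmic, coloured by group. LPS 16h animals lie at the upper right with neutrophil sums of 1534 to 2270 CPM, preterm controls at the lower left with 39.2 to 78.9 CPM, and LPS + Beta-Ac 5d animals between them.

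ALOX15 (ENSMMUG00000030381), a lipoxygenase of epithelium and macrophages that is also needed for some anti-inflammatory lipids, was called in none of the 6 comparisons. It was at 24.8, 15.5, 15.6 and 9.71 CPM in preterm controls and at 11.8, 8.08, 9.32 and 7.18 CPM in LPS 16h. Term controls were at 6.65 and 14.1 CPM, LPS 5d at 8.67, 14.97 and 15.2 CPM, and LPS + Beta-Ac 5d at 8.24, 11.8 and 12.5 CPM. Its log2 difference in LPS 16h was -0.79 (SE 0.298, adjusted p = 0.0473), with overlap through preterm control 209. Without that animal it was a call, at -1.02 (adjusted p = 0.0142). The limma-trend test gave an unadjusted p below 0.05 for it in that comparison and in none of the other 5.

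Between LPS + Beta-Ac 5d and LPS 5d none of the 10 genes was called by limma-trend or by limma-voom, 3 of the 10 had an unadjusted p below 0.05, as had 4.82% of all tested genes, and 0.104% of all tested genes were called. The 3 were ALOX5AP, 2.58-fold higher with Beta-Ac (log2 1.37, 95% interval 0.76 to 1.98, adjusted p = 0.106), ALOX5, 2.36-fold higher (log2 1.24, interval 0.52 to 1.96, adjusted p = 0.284), and PTGER4 (log2 0.87, interval 0.38 to 1.36). In all 3 the animals of the groups did not overlap, as was so on the higher side for 6.33% of all genes. ALOX5AP was a call in 2 of 14 alternatives and stayed uncalled in 12, with adjusted p up to 0.546. It was a call without LPS + Beta-Ac animal 255 (log2 1.61, adjusted p = 0.0384). The other call came without preterm control 209 and term control 200, which are in neither of these groups, and the log2 difference stayed at 1.37. Without overlap, 6 of the 11 neutrophil markers and 11 of the 13 monocyte and macrophage markers were also higher with Beta-Ac, of which 1 was called. For PTGS1, PTGS2, PTGES and HPGD the 95% intervals of the log2 difference were -0.82 to 0.65, -0.52 to 0.49, -0.45 to 0.22 and -0.72 to 0.45. Of 8 genes that glucocorticoids are known to raise, such as FKBP5 and TSC22D3, none was called and 2 had an unadjusted p below 0.05. The sum of the 8 was lower with Beta-Ac, at 867 to 1058 CPM, than without, at 1107 to 1358 CPM, and the groups did not overlap.

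**Figure D4:**
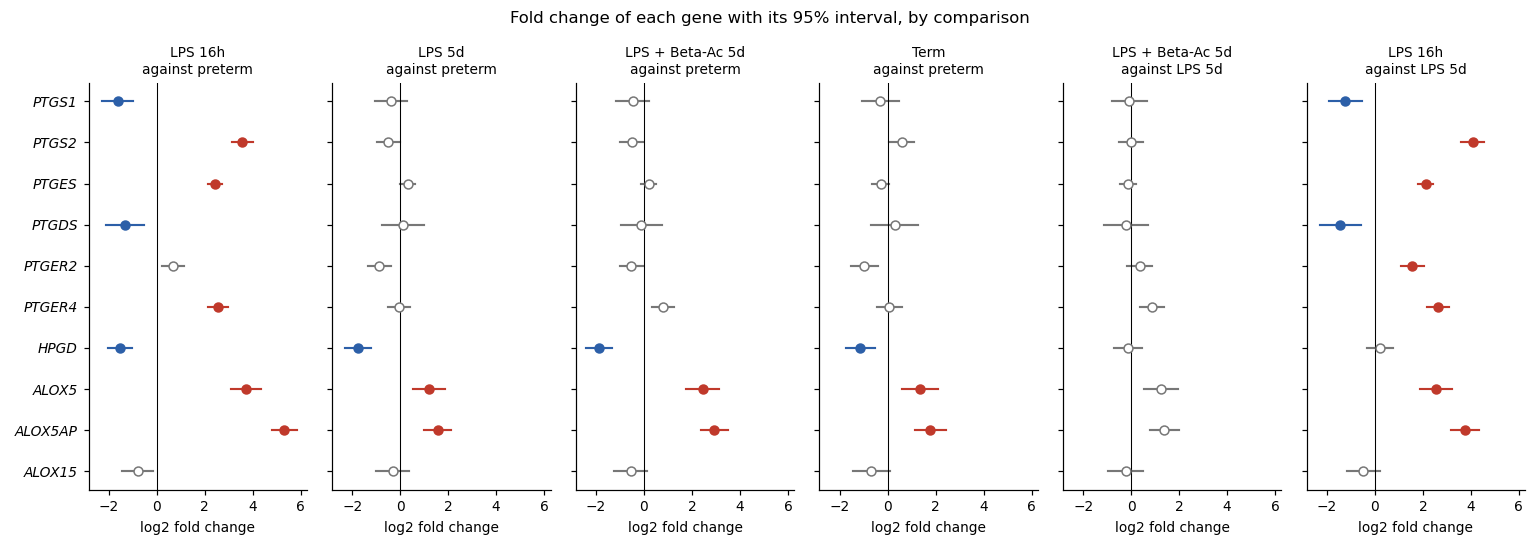
Log2 fold change (points) with its 95% interval (lines) for the 10 genes in 6 comparisons, filled red where called higher, filled blue where called lower and open where not called. HPGD, ALOX5 and ALOX5AP are filled in all 4 comparisons with preterm controls, and no point is filled in the comparison of LPS + Beta-Ac 5d with LPS 5d.

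The numbers called against the background were 3 of 10 in LPS 5d, where 4.83% of all genes were called (2.6% higher and 2.23% lower), and 3 of 10 in LPS + Beta-Ac 5d, where 6.5% were (4.05% higher and 2.44% lower). They were 3 of 10 at term, with 2.07% of all genes (1.11% higher and 0.953% lower), and 8 of 10 between LPS 16h and LPS 5d, 6 higher and 2 lower, with 14.6% of all genes (8.02% higher and 6.61% lower). The median log2 fold change of the 10 was -0.19, -0.29, -0.11 and 1.84 in the same order, and -0.0017, -0.010, -0.0089 and -0.035 over all tested genes. The 3 called at term are the 3 called at 5 days, in the same directions, but all these comparisons share the preterm controls. With library totals alone in place of TMM, the median of all genes in LPS 16h against preterm controls was -0.29, and the same 8 of the 10 were called in the same directions.

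The genes whose log2 CPM ran most like those of a member over the 16 libraries were looked up for 5 of them, leaving out the lists used here. Nearest to PTGS2 were HMGCS1, DHCR7 and KRIT1 (Pearson r of 0.981, 0.980 and 0.980), and HMGCS1 and DHCR7 encode enzymes of cholesterol synthesis. PSMA5, RPN1 and TNFRSF6B were nearest to PTGES (r of 0.994, 0.988 and 0.988), and PKIA, SMARCA2 and PSIP1 to HPGD (0.944, 0.942 and 0.934). LILRA3, C3AR1, a receptor for complement, and SEMA4A were nearest to ALOX5 (0.987, 0.982 and 0.982). TLCD4, C14H11orf71 and EPM2A were nearest to ALOX15, with lower r of 0.858, 0.838 and 0.818. The points share the LPS 16h group, which lies far from the rest in most of these genes, and its greater depth, so that r is a description and not a test.

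A wider list of 53 genes for the release of arachidonic acid, the further prostanoid and leukotriene enzymes, transporters and receptors was taken from general knowledge. Of these 51 were in the table and 50 were tested. In LPS 16h 12 were called higher and 4 lower, in LPS 5d 4 and 1, in LPS + Beta-Ac 5d 5 and 1, and between LPS 16h and LPS 5d 12 and 5. Of all tested genes 8.3% were called higher and 6.07% lower in LPS 16h, and 2.6% and 2.23% in LPS 5d. The shares were 4.05% and 2.44% in LPS + Beta-Ac 5d, and 8.02% and 6.61% between LPS 16h and LPS 5d. At term and between LPS + Beta-Ac 5d and LPS 5d limma-trend called none, with 9 and 5 of the 50 at an unadjusted p below 0.05, as were 18.9% and 4.82% of all tested genes.

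Among 8 tested genes for release of arachidonic acid, the cytosolic phospholipases PLA2G4A and PLA2G4C rose in LPS 16h and MGLL fell. PLA2G4A was at 22.9 to 51.1 CPM against 6.56 to 10.6 in preterm controls (4.05-fold, adjusted p = 1.1e-05). PLA2G4C ranged from 42.4 to 423 CPM among the 4 LPS 16h animals, against 17.2 to 19.9 in preterm controls (6.35-fold, adjusted p = 0.0013). MGLL, which frees arachidonic acid from an endocannabinoid, was at 17.1 to 36.1 against 51.3 to 65.9 CPM (2.31-fold lower, adjusted p = 0.00076). All 3 were called in the same direction against LPS 5d. PLA2G1B was called higher in LPS + Beta-Ac 5d (log2 1.50, adjusted p = 0.0390), at 86.4 to 424 CPM, overlapping with the preterm range of 54.6 to 92.3. PLA2G1B and PLA2G4B were called lower in LPS 16h than in LPS 5d (log2 -1.47 and -1.35), the latter at 175 to 225 against 457 to 569 CPM.

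Of 7 tested prostanoid synthases, 2 rose in LPS 16h. PTGES2, a second prostaglandin E synthase, was at 32.2 to 44.2 CPM against 14.4 to 18.9 in preterm controls (2.32-fold, adjusted p = 3.3e-05), and TBXAS1, thromboxane synthase, at 6.25 to 9.45 against 1.80 to 2.41 (3.35-fold, adjusted p = 3.3e-05). TBXAS1 was called in LPS + Beta-Ac 5d as well (2.96-fold, adjusted p = 0.00069). PTGES3, the third prostaglandin E synthase and a co-chaperone, was at 260 to 320 CPM in LPS 16h, 224 to 288 in preterm controls, 130 to 136 in LPS 5d and 131 to 135 in LPS + Beta-Ac 5d, and was called in LPS 16h against LPS 5d alone (2.10-fold, adjusted p = 1.1e-06). With library totals alone that log2 difference was 0.88, under the fold change for a call. Of 6 tested genes for transport and further breakdown, ABCC4, an exporter of prostaglandins, was called higher in LPS 16h with overlap (2.24-fold, adjusted p = 0.0061), and none was called in the other 5 comparisons, with between 0 and 4 of 6 at an unadjusted p below 0.05.

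Of the 7 other prostanoid receptors, 4 were called in at least 1 comparison. PTGER1, a receptor for prostaglandin E, was at 1.31 to 4.11 CPM in LPS 16h and 0.248 to 0.400 in preterm controls, where each library held 7 to 11 counts (log2 2.57, SE 0.539, adjusted p = 0.0016). PTGDR, the prostaglandin D receptor, was at 4.11 to 14.6 against 0.416 to 1.05 CPM, with 9 to 24 counts per preterm library (log2 3.58, SE 0.377, adjusted p = 3.0e-06). PTGER3, a receptor for prostaglandin E that lowers cyclic AMP, was called lower at 5 days, at 0.190 to 0.907 CPM with LPS and 0.362 to 0.941 with LPS + Beta-Ac against 1.35 to 2.15 in preterm controls (log2 -1.74 and -1.45, adjusted p = 0.0151 and 0.0315). PTGER3 in LPS 16h was at 2.37 to 6.66 CPM. Between LPS 16h and LPS 5d, PTGER3, PTGER1, PTGDR and PTGFR were all called higher in LPS 16h (log2 2.72, 1.98, 3.23 and 1.53), and PTGFR, the prostaglandin F receptor, was at 1.01 to 4.02 against 0.544 to 0.996 CPM there.

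In the leukotriene branch, LTA4H, which makes the neutrophil attractant leukotriene B, rose in LPS 16h to 275 to 369 CPM from 120 to 150 (2.49-fold, adjusted p = 7.2e-07). LTC4S, which makes the cysteinyl leukotrienes instead, fell to 1.54 to 2.85 CPM from 6.15 to 8.23 (2.99-fold lower, adjusted p = 0.00022). GGT5 and GGT1, which process cysteinyl leukotrienes, were both called higher in LPS 16h and in LPS 5d, and GGT1 in LPS + Beta-Ac 5d too (log2 1.66, adjusted p = 0.0029). GGT5 was at 33.7 to 40.3 CPM in LPS 16h, 11.8 to 18.8 in LPS 5d and 5.27 to 10.4 in preterm controls. GGT1 overlapped between LPS 16h and preterm controls, and genes of its family are alike enough that reads may be shared among them. LTB4R, the receptor for leukotriene B, was at 3.81 to 8.58 CPM in LPS 16h, 0.806 to 1.95 in LPS 5d, 1.63 to 3.08 in LPS + Beta-Ac 5d, 0.614 and 1.03 at term, and 0.185 to 0.479 in preterm controls, with 4 to 11 counts per preterm library. It was called higher in the 3 LPS groups (log2 4.17, 1.72 and 2.83), although in LPS 5d not with limma-voom (log2 1.84, adjusted p = 0.0748). CYSLTR1, a receptor for cysteinyl leukotrienes, was called only between LPS 16h, at 21.8 to 30.2 CPM, and LPS 5d, at 7.06 to 14.8 (2.43-fold, adjusted p = 0.00077).

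Among 8 tested genes for other lipoxygenases and lipid mediator receptors, FPR2, a receptor for lipoxin and formyl peptides, was at 20.4 to 48.3 CPM in LPS 16h, 0.363 to 0.712 in LPS 5d and 1.58 to 6.66 in LPS + Beta-Ac 5d, and preterm libraries held 0 to 3 counts, so no fold change is given. CMKLR1, a receptor for resolvin and chemerin, fell in LPS 16h to 9.25 to 14.2 CPM from 25.5 to 44.1 (2.78-fold lower, adjusted p = 1.1e-05). EPHX2, the soluble epoxide hydrolase, fell to 22.2 to 54.9 CPM from 56.0 to 85.7 (2.30-fold lower, adjusted p = 0.00094), and was at 90.4 to 130 CPM in LPS 5d.

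Several of these calls depended on the processing or on 1 animal. With limma-voom the adjusted p rose above 0.05 for PTGER3 in LPS 5d (0.0589) and LPS + Beta-Ac 5d (0.0680), FPR2 in LPS 5d (0.262) and PTGFR between LPS 16h and LPS 5d (0.0651), and for PLA2G1B in LPS + Beta-Ac 5d when only the groups compared were fitted (0.0942). With library totals alone, ABCC4 and GGT1 in LPS 16h had log2 values of 0.96 and 0.83. Without single animals ABCC4 in LPS 16h had log2 values of 0.98 (without 035) and 0.99 (without 101), and GGT1 in LPS 16h had 0.92 to 1.00 (without 026, 029, 035, 092, 101 or 209), all under the fold change for a call. GGT5 in LPS 5d had 0.91 to 0.99 without 101, 209 or 239. MGLL and CYSLTR1 between LPS 16h and LPS 5d had -0.86 (without 035) and -0.92 (without 242), and 0.99 (without 240). The adjusted p rose above 0.05 for PTGER3 in LPS 5d without 242 (0.0762), for GGT1 in LPS 5d without 092, 240 or 242 (up to 0.123) and for FPR2 in LPS 5d without 101, 113, 209, 239, 240 or 242 (up to 0.104). It did so for PTGER3 in LPS + Beta-Ac 5d without 092, 101, 209, 249 or 255 (up to 0.169) and for PLA2G1B there without 092, 113, 209, 248 or 249 (up to 0.191). Between LPS 16h and LPS 5d it did so for PLA2G1B without 035, 239 or 240 (up to 0.125), PTGER1 without 242 (0.0971) and PTGFR without 026, 038, 239 or 240 (up to 0.117).

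**Figure D5:**
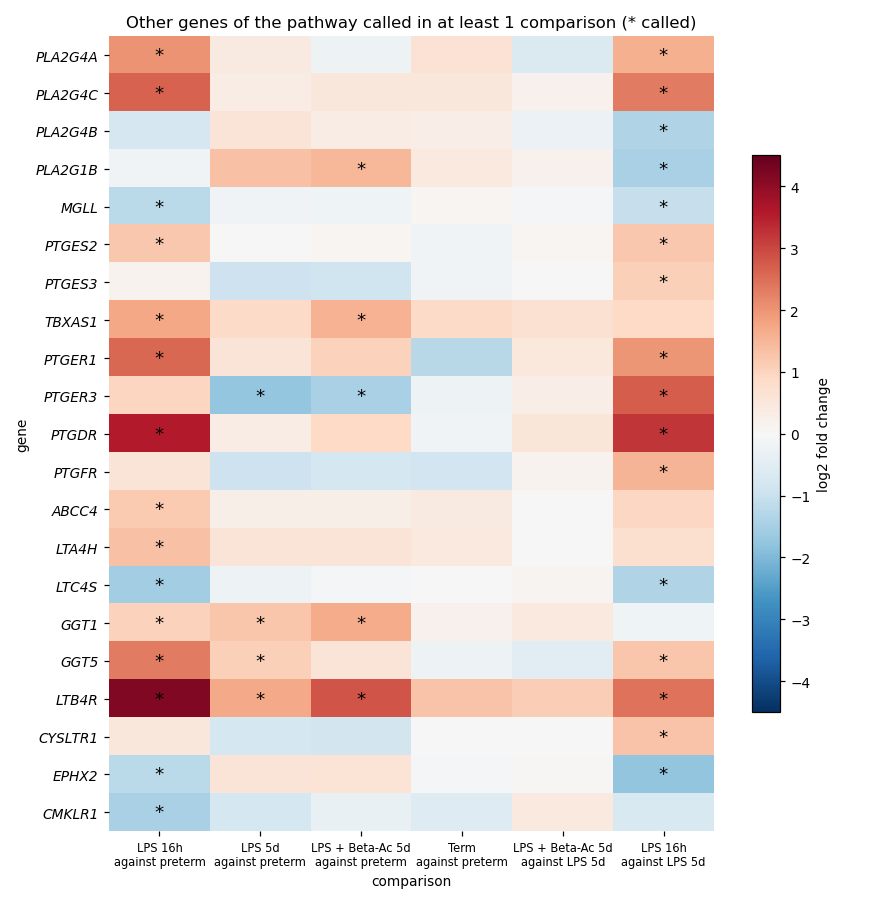
Log2 fold change (colour, red higher and blue lower) of 21 further pathway genes in 6 comparisons, with an asterisk where a gene was called. The column for LPS 16h against preterm controls holds 15 of the asterisks and the column for LPS + Beta-Ac 5d against LPS 5d none. FPR2 is left out because its preterm libraries held 3 counts or fewer.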

How the data were processed

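Lung RNA from 16 animals in 5 groups was compared, 1 library per animal. The authors aligned 75 bp paired-end reads to Mmul_10 with kallisto, used tximport to sum them by gene and deposited unnormalized whole-number counts. Annotation release, strand setting and rounding were not given in the sources used here. Because its column names are bare numbers, the deposited table of counts was recorded under the unit other, and it was analysed on the log2 CPM scale rather than with a count model. Symbols came from the reference table of Ensembl IDs (17256 matched, 5259 did not), and AKR1C3 and CYP4F3 matched no row.

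Counts were scaled with TMM (30% of log ratios and 5% of mean values trimmed), turned into log2 CPM after adding a prior count of 2, and fitted with limma 3.58.1 in R 4.3.3 (trend and robust options, 1 mean per group, all 16 libraries). A gene entered with 15 or more counts over all libraries and 0.371 CPM in 2 or more of them, and 19199 did. Calls required a two-sided Benjamini-Hochberg adjusted p below 0.05 over all tested genes and a change of 1 or more on the log2 scale. P-values set a difference of group means against the spread between animals within groups. That spread was pooled over the 5 groups and drawn towards that of other genes, so the 2 term controls add little to it. Steps were tested on simulated data. The members and gene lists were chosen with earlier results of these data known. Named are all 10 members, every listed pathway gene called in at least 1 comparison, and the 3 genes most like each of 5 members. The alternatives were other scalings, filters, prior counts, limma-voom, fewer groups, and each animal left out. A planned description of sequence features was not run, and levels are not compared between genes because transcript lengths were not used.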

Additional observations from a re-analysis of the deposited data

Results flagged for a closer look

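In the preterm controls, PTGER2 of animal 209 was at 2.91 log2 CPM, and its gap to the nearest animal was 0.904 of the range of the group. ALOX5 of preterm control 101 was at 0.18 log2 CPM, with a gap of 0.964 of the range. Both exceed Dixon's 95% limit for groups of 4, which was applied to 20 sets of animals (10 genes in preterm controls and in LPS 16h), and chance passes it in about 1 set in 20. Animal 209 is also one of the libraries that stood apart on the second principal component.

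The response to LPS differed between 16 hours and 5 days in 8 genes by the direct comparison of the groups. The log2 difference of LPS 16h from LPS 5d was 4.07 for PTGS2, 3.76 for ALOX5AP, 2.63 for PTGER4, 2.53 for ALOX5, 2.12 for PTGES and 1.56 for PTGER2, and -1.24 for PTGS1 and -1.45 for PTGDS. The LPS 16h libraries were also the deepest, at 30596371 to 48052891 counts against 20214144 to 27160740 in LPS 5d, and the part of depth was not tested.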

How the results depend on the processing

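Of 890 alternative values for the 60 differences of the 10 genes, 839 kept direction and side of the threshold, 24 were no longer called, 9 became calls and 18 changed sign, all of the last in differences that were not called. Of 676 for the called pathway genes, 621 kept both and 55 were no longer called. No paired analysis was possible because each animal number occurs in 1 group only. Limits are the 2 term controls, the shared preterm controls, the untested depth of LPS 16h and bulk tissue.

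Leaving out preterm control 209 and term control 200 leaves 1 term control. The log2 differences at term were then -0.51 for HPGD, 1.18 for ALOX5, 1.13 for ALOX5AP and -1.34 for PTGER2. With all 16 animals in the fit, the number of the 10 genes called at term was 3, and with only the groups compared it was 0. Without single preterm controls it was 1 to 4 (1 without 092, 101 or 113). Between LPS + Beta-Ac 5d and LPS 5d it was 0, and 1 without those 2 animals and 0 to 1 without single ones. For the pathway lists, no minimum fold change gave 25 in place of 16 in LPS 16h, 11 in place of 5 in LPS 5d, 11 in place of 6 in LPS + Beta-Ac 5d, 1 in place of 0 at term and 28 in place of 17 between LPS 16h and LPS 5d. Limma-voom gave 2 in LPS 5d, single animals left out gave 3 to 4 there, and 0 to 1 at term. These alternatives for the lists, ratios and levels were added after seeing the data.

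Without preterm control 209 and term control 200, PTGDS had a log2 difference of -0.056 in LPS 5d (0.12 with all animals) and -0.35 at term (0.30), and PTGER4 0.0079 in LPS 5d (-0.07). Without single animals, PTGDS ranged from -0.056 to 0.43 in LPS 5d, -0.45 to 0.21 in LPS + Beta-Ac 5d and -0.18 to 0.77 at term, PTGER4 from -0.21 to 0.014 in LPS 5d and -0.062 to 0.15 at term, and PTGS1 from -0.75 to 0.14 at term. Between LPS + Beta-Ac 5d and LPS 5d, PTGS1 ranged from -0.20 to 0.016, PTGS2 from -0.20 to 0.22, PTGDS from -0.59 to 0.00093 and HPGD from -0.33 to 0.046.

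Over all tested genes, no minimum fold change gave 7359, 2827, 3317, 766 and 6718 calls in place of 2758, 928, 1247, 397 and 2810 in LPS 16h, LPS 5d, LPS + Beta-Ac 5d, term and LPS 16h against LPS 5d. At term 116 remained with only the groups compared, 242 without the 2 animals, and 129 to 562 without single animals. Between LPS + Beta-Ac 5d and LPS 5d the 20 calls were 3 with limma-voom, 0 with only the groups compared, 34 without the 2 animals, and 2 to 57 without single ones. With library totals alone, the share of calls that were higher was 39.4% in place of 57.8% in LPS 16h and 38.0% in place of 54.8% between LPS 16h and LPS 5d.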
